A study of Mus musculus with 18 samples.

Results

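Epx, Prg2, Prg3, Ear1, Ear2, Ear6, Rnase2a, Siglecf and Il5ra are 9 mouse genes by which eosinophils are usually recognised, and they were chosen by name from the 49585 genes in the count table. All 9 had a row of their own, and their read counts were followed over 18 bulk RNA-seq libraries in 6 groups of 3. The libraries were made from CD45+ leukocytes of Kaede mice, a strain that carries a fluorescent protein which violet light turns irreversibly from green to red. Skin or joint was exposed to light, and red cells were sorted from the tissue (nonmigrated) or from the lymph node (LN) that drains it (migrated).

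The joint nonmigrated and joint migrated groups came from mice with inflamed joints. The skin nonmigrated and skin migrated groups came from mice with inflamed ear pinnae. For both, Kaede recipients were given OT-II CD4+ T cells that had been driven to a Th1 state in culture, immunized with ovalbumin in Freund's adjuvant, and challenged 10 days later with 100 μg of heat-aggregated ovalbumin (HAO) in the footpad or ear. The joint node and skin node steady state groups are labelled as CD45+ cells that reached the node without inflammation. The titles of the joint node samples name PBS and those of the skin node samples read naive, so the 2 steady state groups may differ in treatment as well as in site, which cannot be told apart. The labels carry the same protocol for every sample, so whether the steady state mice were given T cells and immunization is not stated, and the letters KG in the titles of the joint node samples are not spelled out. Each library was a pool of several mice of matched age and sex, so the p-values below measure the spread between pools. The sort had no eosinophil gate, so the samples are mixed leukocytes.

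Eosinophils are granulocytes that mature in bone marrow under interleukin 5 and enter tissues in response to eotaxins. Their granules hold a peroxidase (Epx), major basic proteins (Prg2, Prg3) and a family of ribonucleases (the Ear genes and Rnase2a), whose genes are transcribed mainly while the granules are being filled. Siglecf is a sialic acid-binding receptor of mouse eosinophils that some macrophages also carry, and Il5ra is the ligand-binding chain of the interleukin 5 receptor, which some B cells also make. Ear2 transcripts are known from macrophages as well.

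Assigned reads ran from 19239531 to 43814403 per library, and the 6 libraries from inflamed skin were the shallowest, at 22528895 or fewer. The paper describes the skin populations as a further data set, compared with joint populations obtained before. The names of these 6 libraries in the counts also follow another form than the rest. Below, a difference of inflamed skin from joint or from the skin node may thus also be one between library sets. Tissue and library set cannot be told apart in these comparisons. Levels are given in CPM, read counts scaled to library size after TMM normalization, on which 3 counts equal 0.0616 to 0.18 CPM depending on the library. Counts of 3 or fewer were treated as the floor. Replicates of a group correlated at 0.972 to 0.998 (Pearson's r of log2(CPM + 1) over genes), and skin nonmigrated replicate 3 stood furthest from its partners, at 0.972 and 0.98. A call required a log2 fold change beyond 1 in either direction and an adjusted p below 0.001 in edgeR's quasi-likelihood test. The adjusted p of 0.05 given in the study's methods is named below as the looser threshold.

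In GRCm38, Epx lies at chr11:87864000-87875536 (minus strand), Prg2 and Prg3 are neighbours at chr2:84980461-84983632 and chr2:84988215-84993886 (both plus), Siglecf lies at chr7:43351341-43359531 (plus) and Il5ra at chr6:106710357-106749037 (minus). The ribonuclease genes sit on chromosome 14, Ear1 at chr14:43818765-43875517 (minus), Ear2 at chr14:44102654-44103534 (plus), Rnase2a at chr14:51255262-51256112 (minus) and Ear6 at chr14:51853699-51854643 (plus). They belong to a family in which Ear1 and Ear2 are near copies of each other, which bears on how their reads were counted. The levels of the 4 ribonucleases differed widely, although Ear1 and Ear2 are nearly identical just upstream of the RefSeq transcription start (GRCm38.p6). The upstream bases are therefore shown for the 4 genes. Each was aligned with the whole Ear2 window of RefSeq, which runs on past the start of Ear2. Lower case marks bases shared with that window and capitals mark bases that differ from it or have no counterpart in it, so the last lower-case bases of Ear1, Ear6 and Rnase2a match Ear2 bases that lie after its start and are not among those printed.
Ear1 (chr14:43819640-43819799, minus strand): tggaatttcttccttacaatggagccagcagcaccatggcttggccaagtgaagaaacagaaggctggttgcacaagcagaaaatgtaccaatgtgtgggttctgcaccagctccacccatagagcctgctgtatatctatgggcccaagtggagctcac
Ear2 (chr14:44102494-44102653, plus strand): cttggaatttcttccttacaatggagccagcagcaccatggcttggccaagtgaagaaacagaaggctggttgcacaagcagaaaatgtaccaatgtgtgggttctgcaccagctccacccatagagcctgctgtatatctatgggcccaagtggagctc
Ear6 (chr14:51853608-51853767, plus strand): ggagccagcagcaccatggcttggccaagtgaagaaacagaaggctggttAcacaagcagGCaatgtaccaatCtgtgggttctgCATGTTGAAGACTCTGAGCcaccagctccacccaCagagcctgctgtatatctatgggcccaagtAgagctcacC
Rnase2a (chr14:51256113-51256272, minus strand): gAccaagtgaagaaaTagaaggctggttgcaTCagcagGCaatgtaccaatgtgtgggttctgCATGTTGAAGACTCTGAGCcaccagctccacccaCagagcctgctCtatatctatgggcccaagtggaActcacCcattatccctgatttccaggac

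None of the 160 bases printed for Ear1 differed from the aligned Ear2 window, and over 250 upstream bases the pair was 99.2% identical. Ear6 and Rnase2a were 85.4% and 79.1% identical to Ear2 over the aligned upstream bases. Both hold the 19-base run CATGTTGAAGACTCTGAGC, which occurs in 2 of 32851 RefSeq upstream windows, those of Ear6 and Rnase2a. GENCODE M21 places the start of Ear6 further upstream than RefSeq, inside the stretch printed.

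The transcripts of Ear1 and Ear2 were 96.2% identical. Of the 100-base stretches of the Ear1 transcript, 23.9% occur letter for letter in the transcript of another gene, mostly the pseudogene Ear-ps9, and 13.9% of those of Ear2 occur in Ear10. The counting kept uniquely placed reads, so the levels of Ear1 and Ear2 may leave out reads from such stretches. How many reads were lost was not measured. For Ear6, Rnase2a, Epx, Prg2, Prg3, Siglecf and Il5ra the share was 0%.

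Upstream windows were found for 8 of the 9 genes, all but Prg2. GATAA, the core bound by GATA factors on which the eosinophil lineage depends, was searched on both strands. It lay within 250 bases upstream of 3 of the 8 (Prg3, Il5ra and Rnase2a), against 22.6% of all 32851 windows of that length. Prg3 holds it 2 times and Il5ra 1 time, in the windows below, where capitals mark GATAA or its reverse complement.
Prg3 (chr2:84987965-84988214, plus strand): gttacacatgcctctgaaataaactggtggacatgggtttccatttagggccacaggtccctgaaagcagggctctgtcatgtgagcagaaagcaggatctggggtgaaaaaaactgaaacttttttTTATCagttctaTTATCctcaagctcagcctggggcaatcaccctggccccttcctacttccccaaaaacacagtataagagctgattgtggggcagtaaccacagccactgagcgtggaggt
Il5ra (chr6:106749038-106749287, minus strand): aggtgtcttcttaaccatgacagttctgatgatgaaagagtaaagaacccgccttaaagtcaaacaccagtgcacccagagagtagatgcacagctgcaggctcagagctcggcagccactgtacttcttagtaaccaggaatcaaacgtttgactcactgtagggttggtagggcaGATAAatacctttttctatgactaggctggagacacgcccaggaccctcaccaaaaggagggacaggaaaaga

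The same windows were read for other cores. TTGCNNAA, a core of C/EBP sites, was in 3 of 8 (Ear1, Ear2 and Rnase2a), against 9.56% of all windows. The Ear1 and Ear2 windows are 99.2% identical and share this stretch, at -92 and -90 from the start. Their matches are therefore not separate occurrences. GAGGAAG, a core of PU.1 sites, was in Siglecf alone, against 10.6%, and TATAA, the TATA box core, was in Epx and Prg3, against 22.8%. These matches are descriptions of sequence, and no factor binding was measured.

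The granule protein genes were highest in joint nonmigrated cells. Epx, eosinophil peroxidase, stood at 2.38, 4.22 and 18.3 CPM in joint nonmigrated replicates 1 to 3. In the joint migrated libraries it stood at 0.226, 0.257 and 0.129 CPM, and in skin nonmigrated libraries it had 0, 0 and 1 counts (0, 0 and 0.052 CPM). The joint nonmigrated libraries lay above all 15 others, which together ran from 0 to 0.45 CPM, the highest of them being skin migrated replicate 2. The 5 lower groups overlapped with their neighbours in order of mean level.

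Prg2, the major basic protein, had the same order of joint nonmigrated libraries, at 10.1, 17.9 and 55.8 CPM. It was detected in migrated cells of both sites, at 1.48, 1.66 and 2.06 CPM from joint and 2.56, 2.15 and 2.93 CPM from skin. Skin nonmigrated cells held 2.16, 0.117 and 4.06 CPM, and the steady state nodes at most 0.319 CPM. The joint nonmigrated libraries did not overlap with any other group, whereas skin nonmigrated libraries spanned the range of both migrated groups.

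Prg3, which encodes another major basic protein, was the lowest of the granule genes in joint nonmigrated cells, at 0.711, 0.665 and 2.56 CPM. Joint migrated libraries held 0.308, 0.701 and 0.407 CPM and overlapped with them. The other 4 groups ran from 0 to 0.364 CPM, which is 13 counts or fewer in any library. Replicate 3 was thus the highest joint nonmigrated library for Epx, Prg2 and Prg3 alike.

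**Figure D1:**
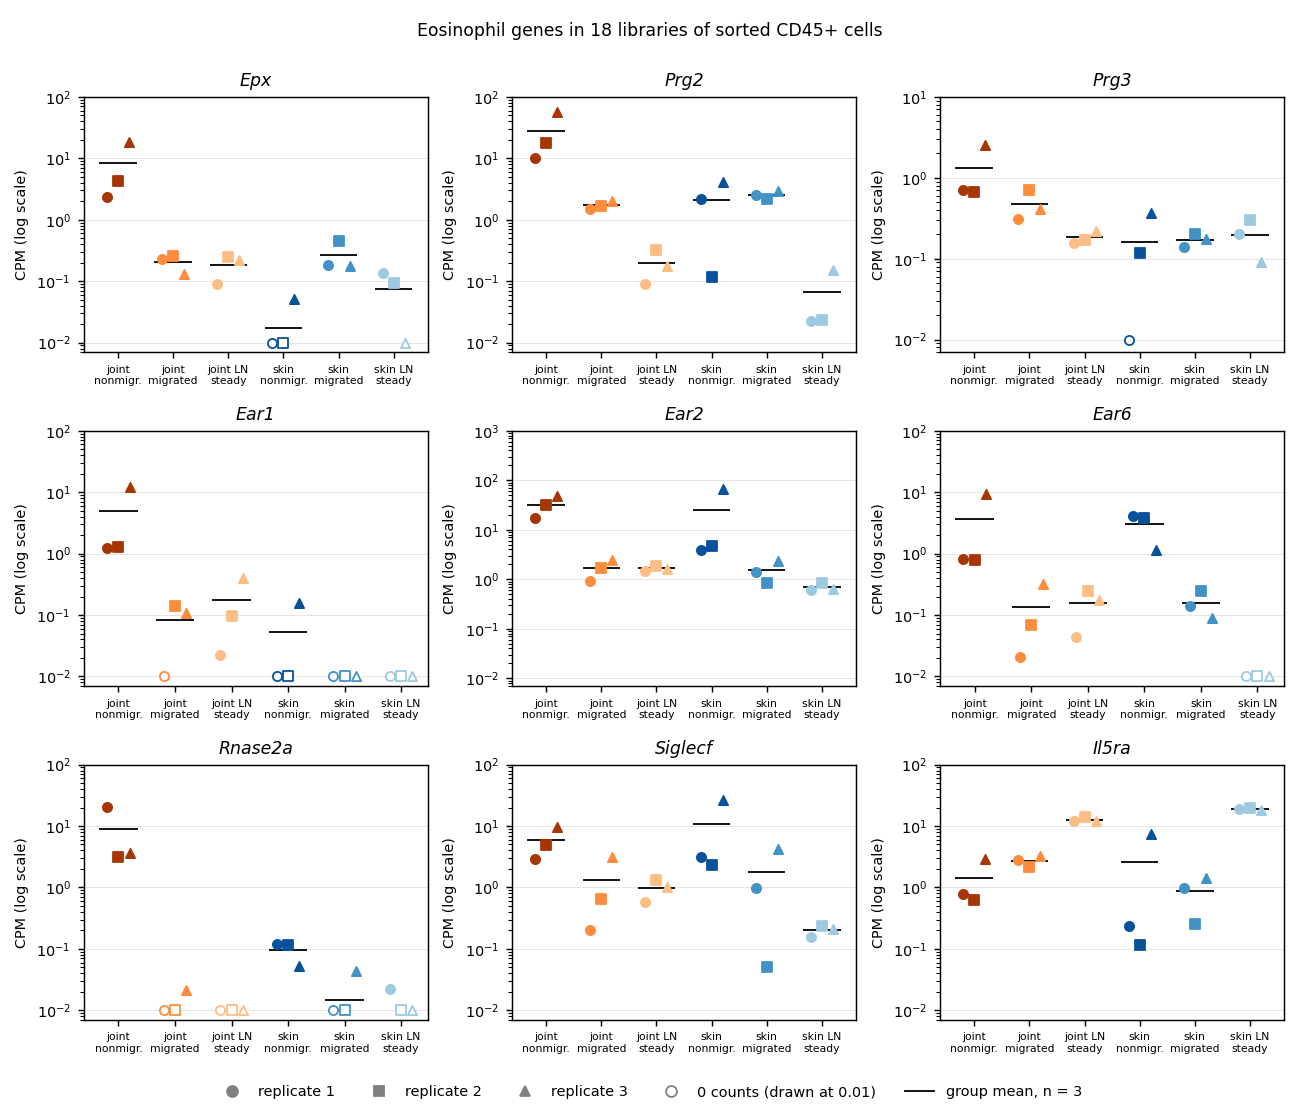
CPM of each of the 9 eosinophil genes (y axis, log scale) in the 6 groups, 1 panel per gene, with a marker shape for each replicate, open markers for 0 counts and a line at the mean of 3 libraries. Epx, Prg2, Ear1 and Rnase2a are highest in joint nonmigrated cells, Siglecf and Ear2 peak in skin nonmigrated replicate 3, and Il5ra is highest in the steady state nodes.

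Of the ribonucleases, Ear2 was the most abundant. It stood at 17.4, 31.4 and 47.3 CPM in joint nonmigrated cells and at 3.9, 4.68 and 65.7 CPM in skin nonmigrated cells. Migrated cells held 0.924, 1.73 and 2.44 CPM from joint and 1.4, 0.849 and 2.31 CPM from skin, and the steady state nodes 0.606 to 1.87 CPM. All 6 nonmigrated libraries lay above all 12 node libraries, and skin nonmigrated replicate 3 stood above the joint range while its partners stood below it.

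Ear1 stood at 1.23, 1.3 and 12.3 CPM in joint nonmigrated cells. It reached at most 0.399 CPM (18 counts) in any other library, and it had 0 counts in all 3 skin migrated and all 3 skin node steady state libraries. A count of 0 at these depths allows up to 0.0673 to 0.15 CPM per library. In skin nonmigrated replicate 3, where Ear2 was at its highest with 1263 counts, Ear1 had 3 counts. The ratio of Ear2 to Ear1 in CPM was 14.2, 24.2 and 3.85 in the 3 joint nonmigrated libraries.

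Ear6 was high in a different skin library pattern. Joint nonmigrated cells held 0.821, 0.797 and 9.23 CPM, and skin nonmigrated cells 4.08, 3.86 and 1.14 CPM. Skin nonmigrated replicate 3 was thus the lowest of its group for Ear6 and the highest for Ear2. Elsewhere Ear6 ran from 0 to 0.322 CPM, with 0 counts in all 3 skin node steady state libraries.

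Rnase2a was almost confined to joint nonmigrated cells and had another order of replicates, with 20.3, 3.09 and 3.67 CPM. Those libraries held 742, 93 and 122 of its counts, and the 15 other libraries held 0 to 2 counts each. The ratio of Rnase2a to Epx was 8.53, 0.732 and 0.2 in joint nonmigrated replicates 1 to 3. Replicate 1, the lowest for Epx and Prg2, was therefore the highest for Rnase2a.

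The surface receptor genes did not follow the granule genes. Siglecf stood at 2.9, 4.92 and 9.65 CPM in joint nonmigrated cells and at 3.18, 2.28 and 26.7 CPM in skin nonmigrated cells. Migrated cells varied more, with 0.205, 0.654 and 3.17 CPM from joint and 0.978, 0.05 and 4.26 CPM from skin. The highest migrated library of each site overlapped with the nonmigrated libraries of that site. Steady state nodes held 0.578, 1.33 and 1.02 CPM (joint) and 0.157, 0.232 and 0.214 CPM (skin).

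Il5ra was the only one of the 9 whose level was highest in the steady state nodes. It stood at 11.97, 14.3 and 12.03 CPM in the joint node and 19.2, 19.5 and 18.5 CPM in the skin node. Joint migrated cells held 2.77, 2.17 and 3.24 CPM and skin migrated cells 0.978, 0.25 and 1.42 CPM. Joint nonmigrated cells held 0.793, 0.631 and 2.86 CPM, and skin nonmigrated cells 0.24, 0.117 and 7.33 CPM. The 2 steady state groups overlapped neither with each other nor with any other group, while the 4 inflamed groups overlapped with their neighbours in order of mean level.

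Per kilobase of exon, Ear2 (44.6) and Prg2 (33.3 CPM per kb) were the highest of the 9 in joint nonmigrated cells, and Prg3 (1.38) and Il5ra (0.399) the lowest. In skin nonmigrated cells the order was led by Ear2 (34.4), followed by Siglecf (3.85) and Ear6 (3.2), and ended with Epx at 0.00633. In the skin node at steady state Il5ra led with 5.33 CPM per kb, while Ear2 stood at 0.976 and no other gene exceeded 0.209. In bulk samples, fewer cells of a type and less RNA per cell cannot be told apart, which holds for every level here.

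Of the joint cells, those that had migrated held less of most eosinophil transcripts than those that stayed. Of the 9 genes, 2 were called lower in joint migrated than joint nonmigrated cells and none higher, against 12.6% of 16777 tested genes called lower. At the looser threshold 6 were lower, against 18.4%. The median log2 fold change was -4.23 over the 9 genes and 0.018 over all tested genes.

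Epx fell by 5.32 on the log2 scale (SE 0.783, adjusted p = 0.000148, edgeR). Rnase2a had 957 counts in joint nonmigrated and 1 in joint migrated cells, a depth-scaled ratio of 1323 (95% counting interval 237 to 52330, which covers counting error only), with an adjusted p of 2.29e-05. Prg2 missed the call at a log2 fold change of -4.01 (SE 0.789, adjusted p = 0.00114). Ear1 (-5.86, SE 1.24, adjusted p = 0.00279), Ear2 (-4.23, SE 0.991, adjusted p = 0.00343) and Ear6 (-4.67, SE 1.12, adjusted p = 0.00404) passed the looser threshold only. In these 6 genes no joint migrated library reached the lowest joint nonmigrated one. The 6 had been picked by the looser threshold, and how many of all tested genes lacked overlap was not counted. Prg3 (-1.47), Siglecf (-2.11) and Il5ra (0.93) were not called at either threshold.

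Joint nonmigrated replicate 3 set much of the size of these differences. Without it the log2 fold change of Epx was -3.99 (adjusted p = 0.00014) and that of Prg2 -3.02 (adjusted p = 0.00556), while Ear1 gave -3.9 (adjusted p = 0.00796) and Ear6 -2.52 (adjusted p = 0.0238). The call of Epx was lost when joint migrated replicate 1, 2 or 3 was left out, with adjusted p values of 0.00106, 0.00116 and 0.00125. In all, 5 of 14 alternatives lost it, and the highest adjusted p of the 14 was 0.00133. Prg2 was called when joint nonmigrated replicate 1 was left out (adjusted p = 0.000951). That library held 742 of the 957 Rnase2a counts of its group, and without it the fitted log2 fold change of Rnase2a was -8.2 (adjusted p = 1.24e-05), still called.

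**Figure D2:**
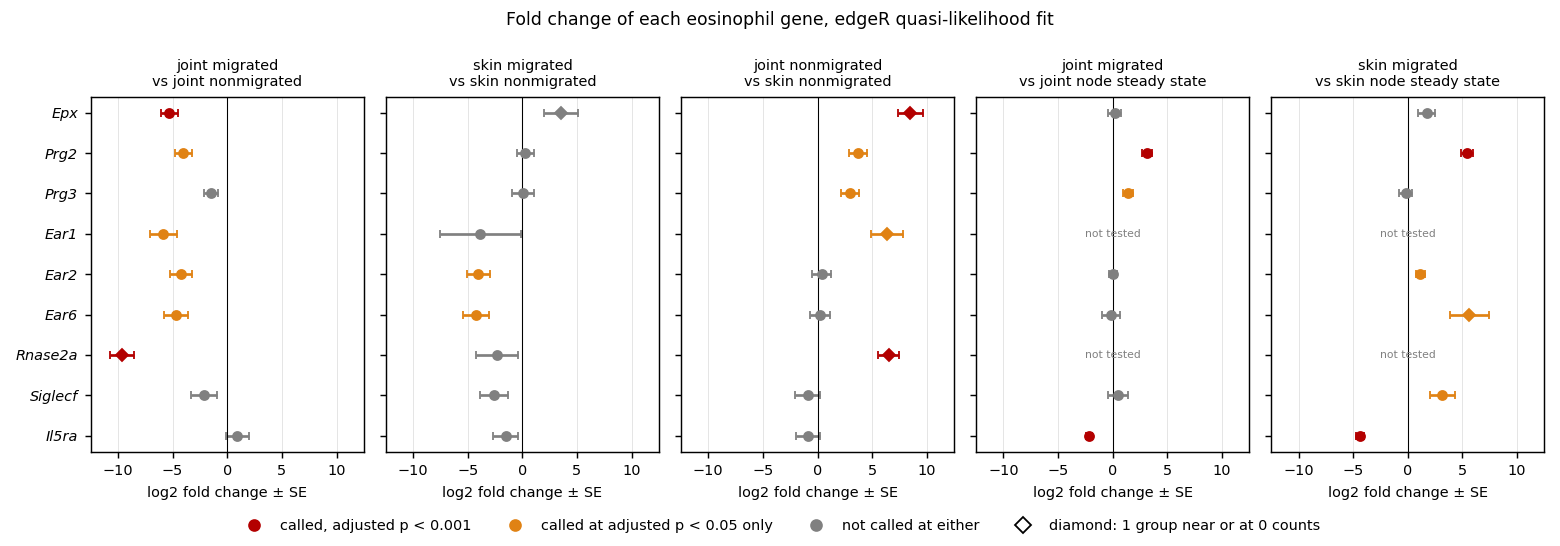
Log2 fold change with its standard error (x axis) for each of the 9 genes in 5 comparisons, from the edgeR fits, coloured by whether a gene was called at 0.001, at 0.05 only or not at all. Joint migrated cells show Epx and Rnase2a called lower, and both node comparisons show Prg2 called higher and Il5ra called lower. Diamonds mark fits with a group whose libraries all had 3 counts or fewer, whose position depends on the fit's prior count.

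In skin, none of the 9 genes was called between migrated and nonmigrated cells, against 20.9% of tested genes called in either direction, although 3 had an unadjusted p under 0.05, and the DESeq2 Wald test called 1, Ear2. At the looser threshold Ear2 and Ear6 were lower in skin migrated cells, 2 of 9 against 19.7% of all tested genes.

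Ear2 differed by -4.02 on the log2 scale (SE 1.02, adjusted p = 0.00549) and Ear6 by -4.23 (SE 1.21, adjusted p = 0.0106). Without skin nonmigrated replicate 3 the difference of Ear2 was -1.49 (adjusted p = 0.0294). Prg2 gave 0.26 (SE 0.783), with a 95% interval of -1.28 to 1.79. Siglecf gave -2.59 (SE 1.25, adjusted p = 0.0965), -0.62 without skin nonmigrated replicate 3 (adjusted p = 0.68) and -4.37 without skin migrated replicate 3 (adjusted p = 0.037). Il5ra gave -1.54 (adjusted p = 0.27) and turned to 2.3 without skin nonmigrated replicate 3 (adjusted p = 0.0691).

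Epx was at or under the floor in all 3 skin nonmigrated libraries. Its 17 counts in skin migrated against 1 count in skin nonmigrated cells gave a ratio of 14.1 (95% counting interval 2.2 to 588), with an adjusted p of 0.0717. Ear1 and Rnase2a were at or under the floor in both skin groups, so no fold is given.

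Among the cells that stayed, joint and skin were compared next, where site cannot be told apart from library set. The granule protein genes Epx and Rnase2a were called higher in joint nonmigrated cells, 2 of 9 against 1.14% of tested genes called higher, and none was called lower. At the looser threshold Prg2, Prg3 and Ear1 joined them, 5 of 9 against 5.45%. The median log2 fold change was 2.94 over the 9 genes and 0.011 over all tested genes.

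Epx had 823 counts in joint and 1 in skin nonmigrated cells, a depth-scaled ratio of 437 (95% counting interval 78.2 to 17270), with an adjusted p of 0.000498. Rnase2a had 957 and 5 counts, a ratio of 102 (43.4 to 314), with an adjusted p of 0.000725. Ear1 had 492 and 3 counts, a ratio of 87.02 (29.6 to 423), with an adjusted p of 0.0114. Of the 492 Ear1 counts 408 lay in joint nonmigrated replicate 3, without which the fitted log2 fold change of Ear1 was 4.4 (adjusted p = 0.0264), and the 3 skin counts all lay in skin nonmigrated replicate 3. Prg2 was higher by 3.71 on the log2 scale (SE 0.798, adjusted p = 0.00618) and Prg3 by 2.94 (SE 0.813, adjusted p = 0.0203). Prg3 missed the looser threshold without joint nonmigrated replicate 3 (2.02, adjusted p = 0.0777) or skin nonmigrated replicate 1 (2.4, 0.0627) or 2 (2.76, 0.0728), and gave 4.38 without skin nonmigrated replicate 3. Prg2 gave 2.72 without joint nonmigrated replicate 3 and 4.62 without skin nonmigrated replicate 3, and passed the looser threshold in both.

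Ear2 (0.37, SE 0.855), Ear6 (0.26, SE 0.911), Siglecf (-0.88, SE 1.16) and Il5ra (-0.85, SE 1.08) were not called at either threshold. Their 95% intervals ran from -1.3 to 2.05, -1.53 to 2.04, -3.15 to 1.38 and -2.98 to 1.27. These 4 values rested on the third library of a site. Without skin nonmigrated replicate 3, Ear2 was 2.9 higher in joint (adjusted p = 0.00148), Il5ra 2.98 (adjusted p = 0.0303) and Siglecf 1.09 (adjusted p = 0.489). Without joint nonmigrated replicate 3, Ear6 differed by -1.9 (adjusted p = 0.0986).

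The 2 calls between sites were close to the threshold. Epx was no longer called without joint nonmigrated replicate 2 or without skin nonmigrated replicate 1, 2 or 3, with adjusted p values of 0.00127, 0.00399, 0.00333 and 0.00132. Rnase2a was no longer called without joint nonmigrated replicate 2 or 3 or without skin nonmigrated replicate 1, 2 or 3, with adjusted p values of 0.001, 0.0011, 0.00509, 0.00422 and 0.00153. Over all these omissions the log2 fold change of Epx ran from 7.16 to 10.98, and that of Rnase2a from 5.1, without joint nonmigrated replicate 1 (still called, adjusted p = 0.000708), to 6.92. A fit of the 2 groups alone called 0 of 16777 genes in place of 511 and gave Epx an adjusted p of 0.00917.

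Whether the change with migration differed between joint and skin was tested as an interaction. None of the 9 genes was called, against 0.119% of tested genes, with 2 at an unadjusted p under 0.05, and the DESeq2 Wald test called Epx. At the looser threshold Epx (-8.88, SE 1.59, adjusted p = 0.00796) and Prg2 (-4.26, SE 1.09, adjusted p = 0.0361) passed, 2 of 9 against 2.17% of tested genes. Both had a more negative log2 change with migration in joint than in skin. Prg2 missed the looser threshold when joint nonmigrated replicate 2 or 3, skin nonmigrated replicate 1, or any single migrated library was left out, with adjusted p values from 0.06 to 0.0894. Epx passed it with any single library left out, at adjusted p values from 0.00452 to 0.0331, its size moving from -7.55 without joint nonmigrated replicate 3 to -11.4 without skin nonmigrated replicate 3.

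**Figure D3:**
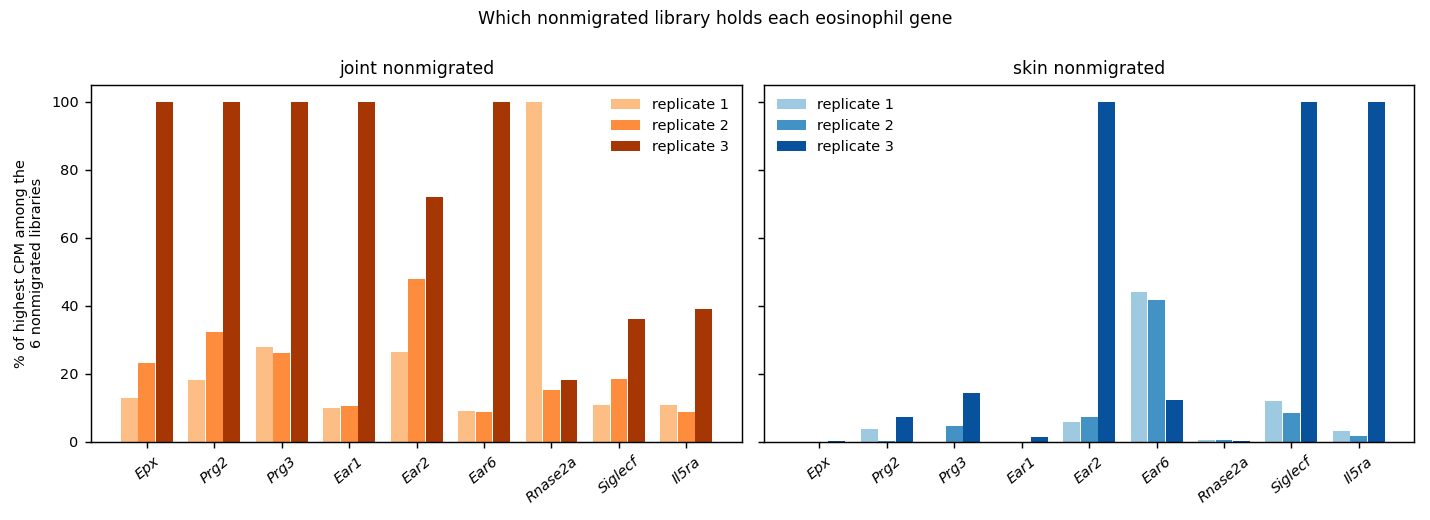
Level of each of the 9 genes in the 6 nonmigrated libraries, as a percentage of the highest of the 6 (y axis, from 0), with joint libraries on the left and skin libraries on the right. Joint replicate 3 holds the highest level of Epx, Prg2, Prg3, Ear1 and Ear6, joint replicate 1 that of Rnase2a, and skin replicate 3 that of Ear2, Siglecf and Il5ra.

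Skin nonmigrated replicate 3 thus combined high Ear2, Siglecf and Il5ra with 1 count of Epx. The eotaxin receptor Ccr3, which marks mature eosinophils, stood at 42.9 CPM there against 7.38 and 3.1 CPM in replicates 1 and 2, and the lipoxygenase gene Alox15 at 137 against 13.0 and 4.15 CPM. In joint nonmigrated cells Ccr3 reached 6.92 CPM and Alox15 32.4 CPM, both in replicate 3. Joint nonmigrated replicate 3 thus had 609 counts of Epx and less Ccr3, and skin nonmigrated replicate 3 had 1 count of Epx and more Ccr3. Among the other receptors read below, Csf2ra, Il3ra and Il1rl1 were also highest of the skin nonmigrated group in replicate 3. Ccr1, Csf2rb, Csf2rb2, Ptgdr2 and Hrh4 were lowest there, with Hrh4 at 0.78 against 1.14 and 3.16 CPM. Of the lipid mediator and type 2 cytokine genes, Il4 and Il13 were lowest there (Il13 at 4.94 against 26.8 and 27.8 CPM) and the others highest.

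Other cell types also stood apart in that skin library. The connective tissue mast cell genes Cpa3, Mcpt4, Cma1 and Tpsb2 were at 84.7, 111, 66.6 and 48.2 CPM, against 0.994 to 6.36 CPM in the other 2 skin nonmigrated libraries. In joint nonmigrated replicate 3 the same genes were at 87.8, 114, 84.1 and 62.6 CPM, against 28.5 to 49.3 CPM in replicates 1 and 2, and their part in the levels of that library was not tested. These genes were picked from a list of 10 mast cell and basophil markers. Of the rest, Fcer1a and Ms4a2 were also highest of the skin nonmigrated group in replicate 3, and Prss34 was between its partners. Kit (31.1 against 31.4 and 44.4 CPM), Mcpt8 (48.6 CPM) and Cd200r3 (25.2 CPM) were lowest of the group in that skin library. The summed level of 8 macrophage markers was 7071 CPM, against 3378 and 2053 CPM. The part of these cells in the levels of Siglecf and Ear2 was not tested. Ear2 is also read in some monocytes. The summed level of 6 patrolling monocyte markers was 380 to 610 CPM in skin nonmigrated and 1213 to 1835 CPM in joint nonmigrated cells. Most of it was Nr4a1 (mean 1009 CPM in joint against 102 in skin) and Itgal (388 against 333). Of the 6, 2 (Nr4a1 and Cx3cr1) were called higher in joint, against 1.14% of tested genes. Ace (16.9 against 17.95 CPM), Treml4 (10.15 against 8.53) and Eno3 (9.01 against 17.1) were not called. Node groups had sums of 844 to 1448 CPM, with Ear2 at 0.606 to 2.44 CPM. The part of monocytes in Ear2 was not tested.

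Joint nonmigrated cells differed from the other groups in markers of other granulocytes. The summed level of 8 granule genes of immature neutrophils (among them Elane, Mpo, Ltf, Ngp and Camp) was 4085, 8698 and 13750 CPM in joint nonmigrated replicates 1 to 3. It was 16.7 to 57.6 CPM in skin nonmigrated and 16.7 to 21.7 CPM in joint migrated cells. All 8 were called lower in joint migrated than nonmigrated cells, against 12.6% of tested genes, and 7 of 8 were called higher in joint than skin nonmigrated cells, against 1.14%. The defining genes Elane and Ms4a3 each had 0 counts in 2 of the 3 skin nonmigrated libraries and 1 count in the other. The summed level of 7 mature neutrophil markers was 5142 to 15990 CPM in joint and 1584 to 2601 CPM in skin nonmigrated cells. Both sums were highest in joint nonmigrated replicate 3, as were Epx, Prg2 and Ear1. Prg2 was higher in joint migrated than joint node cells (1.48 to 2.06 against 0.089 to 0.319 CPM). The immature sum was lower (16.7 to 21.7 against 199 to 321 CPM). Epx (0.129 to 0.257 against 0.089 to 0.2455 CPM) and Ear1 (0 to 0.14 against 0.022 to 0.399 CPM) overlapped between these 2 groups. The part of these cells in the levels of Epx, Prg2 and Ear1 was not tested.

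**Figure D4:**
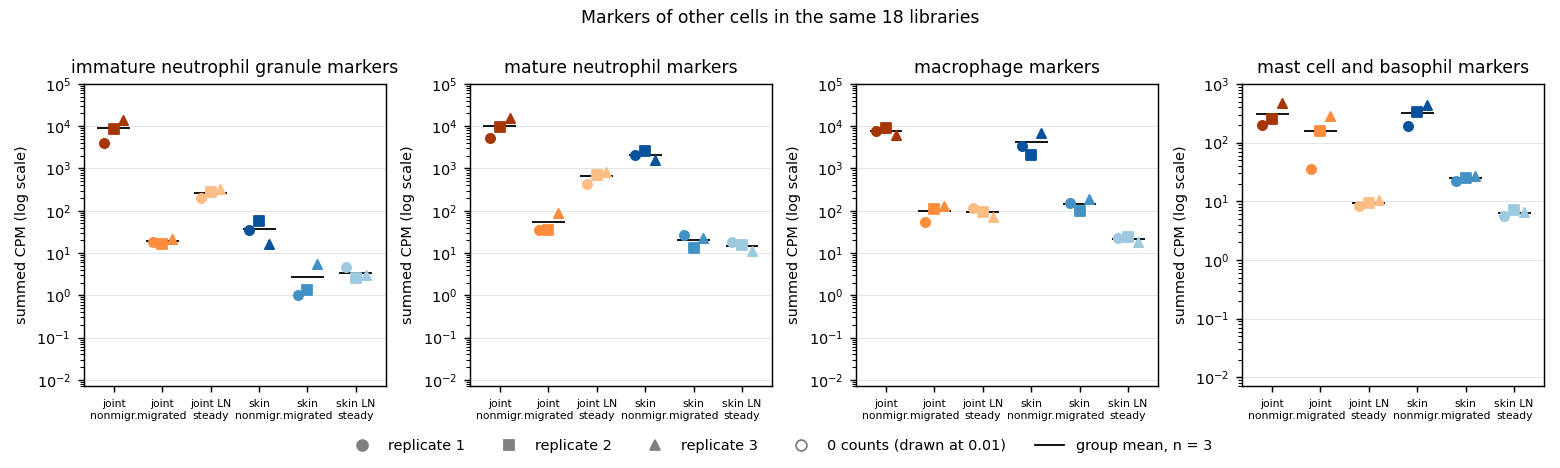
Summed CPM of 4 lists of marker genes of other cells (y axis, log scale) in the 6 groups, with a marker shape for each replicate and a line at the mean of 3 libraries. Immature neutrophil granule markers separate joint nonmigrated cells (4085 to 13750 CPM) from all other groups, and macrophage markers separate both nonmigrated groups (2053 CPM or more) from the 4 node groups (188 CPM or less).

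Migrated cells of the 2 sites were then compared with each other and with the steady state nodes. These comparisons share the migrated libraries with those above, so their values are given side by side. Of the 9 genes, 0 were called between joint migrated and skin migrated cells, against 0% of tested genes, and 0 passed the looser threshold, against 1.14%. None of the 9 had an unadjusted p under 0.05, and the DESeq2 Wald test called none. The log2 difference was -0.39 for Epx (95% interval -2.12 to 1.35), -0.55 for Prg2 (-2.03 to 0.93) and 1.62 for Il5ra (-0.58 to 3.81).

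Against the node at steady state, migrated cells held more Prg2 and less Il5ra at both sites. In the fit of the 12 node libraries 7 of the 9 genes passed the filter on low counts, and Ear1 and Rnase2a were not tested. From joint, 2 of the 7 were called in either direction, against 15.9% of 17107 tested genes. From skin, the same 2 were called, against 25.1%.

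Prg2 was higher by 3.18 on the log2 scale in joint migrated cells (SE 0.453, adjusted p = 6.53e-05) and by 5.38 in skin migrated cells (SE 0.548, adjusted p = 1.82e-06). Without skin node replicate 3, the library with 5 of the 7 Prg2 counts of its group, the difference in skin was 6.6. Il5ra was lower by -2.19 in joint migrated cells (SE 0.281, adjusted p = 2.54e-05) and by -4.38 in skin migrated cells (SE 0.336, adjusted p = 1.22e-07). In both genes the migrated and steady state libraries did not overlap. A fit of all 18 libraries left neither called in joint, with adjusted p values of 0.00596 for Prg2 and 0.0333 for Il5ra.

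At the looser threshold Prg3 was also higher in joint migrated cells (1.37, SE 0.451, adjusted p = 0.0216), but not without joint migrated replicate 2 (0.98, adjusted p = 0.136) or joint node replicate 1 (adjusted p = 0.0817) or 2 (adjusted p = 0.0733). In skin migrated cells Siglecf (3.16, SE 1.11, adjusted p = 0.0233) and Ear2 (1.15, SE 0.403, adjusted p = 0.0234) were also higher at that threshold. Without skin migrated replicate 3, Siglecf differed by 1.35 (adjusted p = 0.333) and Ear2 by 0.66 (adjusted p = 0.189). Leaving out 1 skin node library also took Siglecf (replicate 1, 2 or 3, adjusted p = 0.0744, 0.0598 and 0.0605) and Ear2 (replicate 1 or 3, adjusted p = 0.0848 and 0.0743) past 0.05. Ear6 was higher too, with 10 counts against 0, which is at least 6.27-fold higher against a floor of 3 counts over the group (adjusted p = 0.0164, and 0.0532 without skin migrated replicate 2). Epx gave 0.17 (SE 0.616) in joint and 1.72 (SE 0.746, adjusted p = 0.0577) in skin. Of the 7 genes tested, 3 in joint and 5 in skin thus passed the looser threshold. An unadjusted p under 0.05 was found in edgeR for 3 of the 7 in joint, against 9584 of 17107 tested genes. In skin it was found for 6 of the 7, against 11692 of 17107.

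The 2 steady state nodes did not differ by a call in any of the 7 genes tested, against 1.44% of tested genes, and none passed the looser threshold, against 3.89%. The DESeq2 Wald test called none, and 4 had an unadjusted p under 0.05. On the log2 scale, joint minus skin node, these were Prg2 (1.64, adjusted p = 0.162), Ear2 (1.23, adjusted p = 0.0737) and Il5ra (-0.59, adjusted p = 0.208), together with Ear6, which had 20 counts against 0 (adjusted p = 0.0706).

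Il5ra was set beside Ccr3, the eotaxin receptor gene. Ccr3 ran opposite to Il5ra in the node, at 5.21 to 8.13 CPM in joint migrated and 3.9 to 9.13 CPM in skin migrated cells against 1.47 to 1.99 CPM in the joint node and 0.404 to 0.579 CPM in the skin node at steady state. In skin nonmigrated replicate 3, where Ccr3 and Siglecf were at their highest, Il5ra stood at 7.33 CPM against 0.24 and 0.117 CPM in its partners. What share of Il5ra reads came from which cells was not tested.

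**Figure D5:**
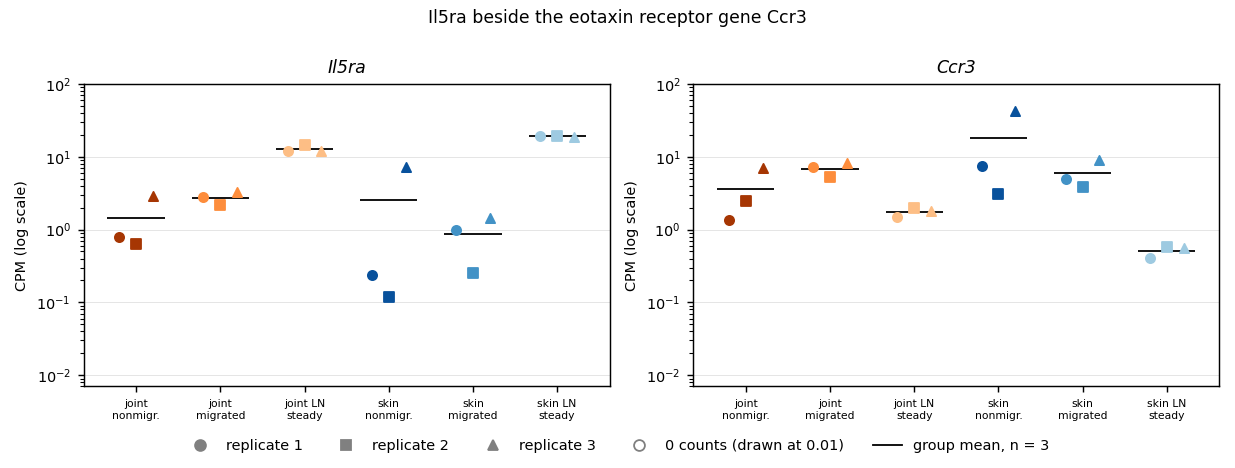
CPM of Il5ra and of the eotaxin receptor gene Ccr3 (y axis, log scale) in the 6 groups, with a marker shape for each replicate and a line at the mean of 3 libraries. Il5ra is highest in the 2 steady state nodes, while Ccr3 is highest in skin nonmigrated replicate 3 (42.9 CPM), where Il5ra also stands above its 2 partners.

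The other genes of the eosinophil pathway were read from lists, starting with the ligands. Of 10 growth and recruitment ligands, 8 were tested among inflamed samples, where 2 were called lower and 1 higher in joint migrated cells and 3 lower and 1 higher in skin migrated cells. Of all tested genes 12.6% were called lower and 8.8% higher in joint migrated cells, and 12.4% lower and 8.49% higher in skin migrated cells. In the node fit 5 ligands were tested, and 2 (Csf2 and Ccl5) were called higher than the steady state node in joint and 3 (these and Ccl24) in skin, against 12.4% and 16.6%. The eotaxin Ccl24 was lower in migrated cells of joint (-5.47, adjusted p = 0.000341) and skin (-5.49, adjusted p = 0.000183). It stood at 178, 35.4 and 34.1 CPM in skin nonmigrated and 6.9, 10.3 and 17.4 CPM in joint nonmigrated cells, a difference that was not called (adjusted p = 0.0127). The chemokine Ccl7 was lower in migrated cells at both sites, and Ccl5, which T cells also make, was higher (2.66 in joint and 2.17 in skin). Il5 itself was at most 1.14 CPM in any library, and the eotaxin Ccl11 at most 1.26 CPM, in joint nonmigrated cells.

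Of 9 receptors, all tested, 2 were called lower and 1 higher in joint migrated cells and 3 lower and 0 higher in skin migrated cells, against the shares of 12.6% lower and 8.8% higher in joint and 12.4% and 8.49% in skin. Against the steady state node, 7 were called higher and 1 lower in joint migrated cells, where 12.4% of tested genes were called higher and 3.5% lower. In skin migrated cells 8 were called higher and 0 lower, where the shares were 16.6% and 8.51%. Ccr3 was among those called higher, by 2.0 in joint (adjusted p = 9.53e-05) and 3.58 in skin (adjusted p = 9.61e-07), and Il1rl1, the interleukin 33 receptor, by 2.4 and 2.89. Csf2rb, the signalling chain that the interleukin 5 receptor shares with the receptor for GM-CSF, was higher by 3.22 and 5.39, and its relative Csf2rb2 by 3.89 and 5.09.

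Of 10 transcription factors of the eosinophil lineage, all tested, 5 were called lower and 0 higher in joint migrated than joint nonmigrated cells, and 6 lower and 0 higher in skin, against 12.6% and 12.4% of tested genes called lower. These were Spi1, Trib1, Cebpa, Cebpb and Cebpe at both sites and Gata2 in skin. Cebpe, needed for the late granule stage of granulocytes, was lower by -7.27 in joint and -4.24 in skin, and it stood at 19.7, 34.2 and 55.0 CPM in joint nonmigrated cells. Gata1 was called lower in migrated cells than in the steady state node at both sites (-1.98 and -2.1). That was 1 of 10 lower at each site, against 3.5% and 8.51% of tested genes, while 2 were called higher in joint (Id2 by 2.67 and Cebpa by 1.66), against 12.4%, and 5 in skin (Spi1, Xbp1, Id2, Trib1 and Cebpa), against 16.6%. Gata1 stood at 6.24 CPM in skin nonmigrated replicate 3 against 1.14 and 0.76 CPM in replicates 1 and 2. Gata2 was lowest of the group there, at 73.9 CPM against 169 and 306 CPM. Of the other factors, Zfpm1, Cebpb, Id2 and Trib1 were also lowest there, and Cebpa, Cebpe, Spi1 and Xbp1 highest.

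Of 7 genes of lipid mediators and type 2 cytokines, all tested, 4 were called lower and 0 higher in migrated cells of each site, against 12.6% of tested genes lower in joint and 12.4% in skin. Alox5, Alox5ap and Hpgds, which lead to leukotrienes and prostaglandin D2, were called at both sites, with Ltc4s in joint and Il4 in skin. Ltc4s, leukotriene C4 synthase, was called higher in joint than skin nonmigrated cells (3.39, adjusted p = 0.000286) and Il4 lower (-3.84, adjusted p = 0.000602), 1 of 7 in each direction against 1.14% and 1.9% of tested genes. Against the steady state node Ltc4s was the 1 gene of the list called in joint migrated cells, higher by 6.43, against 12.4% called higher. In skin 2 were higher (Ltc4s by 6.94 and Alox5ap by 1.86), against 16.6%, and 1 lower (Hpgds, -2.26), against 8.51%. Alox15 was not called in any comparison among inflamed samples.

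Of 6 other ribonucleases of the family, 4 were tested among inflamed samples and 3 were called lower in migrated cells of each site, namely Rnase4, Ang and Rnase2b, against 12.6% of tested genes in joint and 12.4% in skin. Rnase2b, the relative of Rnase2a, stood at 2.08, 1.46 and 1.05 CPM in joint and 1.68, 1.4 and 4.63 CPM in skin nonmigrated cells, so unlike Rnase2a it was present at both sites. Ear10 had 0 counts in all 18 libraries and Ear14 at most 1 count. Rnase6, which many leukocytes make, was 19.7 to 37.7 CPM in joint nonmigrated and 32.9 to 46.6 CPM in steady state node cells. Of the 3 tested against the node, Rnase4 was called higher and Rnase6 lower at both sites, where 12.4% and 16.6% of tested genes were called higher and 3.5% and 8.51% lower.

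The genes whose level pattern lay closest to that of Epx were sought among 18155 others. The measure was the root mean square difference of log2(CPM + 1), centred on each gene's mean, over the 18 libraries. Gpr27, an orphan receptor, was nearest (0.312), followed by Ear1 (0.316), Prss57 (0.327), a serine protease of granulocytes, Scrg1 (0.363), Pglyrp1 (0.378), a neutrophil granule protein, and Vpreb1 (0.401), the surrogate light chain of B cell precursors. Prg3 ranked 144 (0.73), Prg2 339 (0.798) and Rnase2a 399 (0.817). The measure depends on the size of a gene's changes as well as on their order, so a low rank does not mean another order of libraries. The ratio of Prg2 to Epx, for example, was 4.25, 4.25 and 3.04 in joint nonmigrated replicates 1 to 3. Ear6 ranked 1568, Siglecf 12206, Ear2 12582 and Il5ra 17533.

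The 5 other genes were picked by likeness to Epx, so they share its pattern by selection. Each was highest in joint nonmigrated cells without overlap with another group. Gpr27 stood at 3.58, 5.35 and 8.72 CPM there and at most 0.355 CPM elsewhere. Prss57 stood at 2.33, 9.27 and 9.68 CPM, and at most 0.234 CPM elsewhere. Pglyrp1 stood at 78.1, 141 and 238 CPM, but at 10.7 to 31.1 CPM elsewhere. Vpreb1 stood at 2.71, 1.86 and 10.2 CPM, with replicate 3 the highest as for Epx, and at most 1.14 CPM elsewhere.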

How the data were processed

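RNA from sorted CD45+ cells was sequenced as 18 libraries, and the deposited table holds raw read counts per gene, made by the authors with Trim Galore, TopHat2 on mm10, Ensembl annotation and HTSeq. Removing 5 summary lines left 49585 genes. Counts were scaled by TMM and tested in edgeR 4.0.16 (R 4.3.3, quasi-likelihood F test, Benjamini-Hochberg adjustment) after filterByExpr with a minimum count of 10, in a fit of the 12 inflamed libraries (16777 genes) and a fit of the 12 node libraries (17107 genes). SE is the log2 fold change divided by the root of F. The fits were tested on simulated data. The 95% intervals of log2 fold changes were taken from the SE with a normal distribution, so they include the spread between pools. They are narrower than the quasi-likelihood test implies. Counting intervals of ratios and floors cover counting error only.

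The members and lists were chosen with earlier results of these data known. The rule for named genes was the 9 members, up to 4 called genes per list and comparison by adjusted p, list genes whose level bears on which cells hold a member, and the 5 genes with profiles closest to Epx. Other list genes named were chosen after their values were seen. Alternatives were DESeq2 1.42.0 size factors and Wald test, no filter, a replicate block, other sample sets, the looser threshold, each replicate left out, and, added after seeing the data, replicate 3 of both nonmigrated groups left out. Sequences came from RefSeq and gene models from GENCODE M21. Figures were drawn with matplotlib 3.10.9. Values of 1 list gene are not reported here.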

Additional observations from a re-analysis of the deposited data

Results flagged for a closer look

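Epx and Prg2 were flagged because their change with migration differed between joint and skin by a test of the difference itself, the interaction term of edgeR's quasi-likelihood fit, at the looser threshold. For Epx the change in joint minus that in skin was -8.88 on the log2 scale (SE 1.59, adjusted p = 0.00796), and the skin side of it rests on 1 count in nonmigrated and 17 counts in migrated cells. For Prg2 it was -4.26 (SE 1.09, adjusted p = 0.0361), with all 3 joint migrated libraries below all 3 joint nonmigrated ones and the skin libraries overlapping. Neither was called at an adjusted p under 0.001. Groups of 3 are too small for the test of single libraries that stand apart.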

How the results depend on the processing

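Of 443 recomputed values for 32 log2 fold changes of the 9 genes, 369 kept direction and side of the threshold, 38 passed it newly, 21 lost it and 15 reversed. The cause was not tested.

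Of the 9 genes, 2 were called lower in joint migrated cells, against 4 with the DESeq2 Wald test, 6 without the count filter, 4 in a fit of all 18 libraries, 6 at 0.05, and 1 to 3 with a replicate left out. For skin migrated against nonmigrated cells the count was 0, against 1 with the Wald test, without the filter, with the replicate block, in all 18 libraries or without replicate 3 of both nonmigrated groups, and 2 at 0.05. Between nonmigrated sites it was 2, against 0 with the replicate block or the 2 groups alone, 1 without both replicates 3, 5 at 0.05, and 0 to 2 with a replicate left out. The interaction gave 0, against 1 with the Wald test or without the filter and 2 at 0.05. Joint migrated against node gave 2, and 0 in all 18 libraries, and skin migrated against node gave 2, and 5 at 0.05.

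Over all genes, the count called between nonmigrated sites was 511, against 1550 (Wald), 1014 (no filter), 204 (replicate block), 0 (the groups alone), 1151 (both replicates 3 out), 1104 (all 18), 2400 (at 0.05) and 120 to 1372 (a replicate out). The interaction gave 20, against 668, 290, 1, 391 (both replicates 3 out), 301 (all 18), 1029 (at 0.05) and 7 to 330. Joint against skin migrated gave 0, against 177, 61, 7, 38 (all 18), 191 (at 0.05) and 0 to 22. The steady state nodes gave 246, against 494, 521, 163, 665 (at 0.05) and 83 to 180. At 0.05 joint migration gave 5757 in place of 3586, skin migration 5940 in place of 3508 (2111 with the groups alone), and joint migrated against node 4143 in place of 2714.

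Reversals with a replicate left out were Prg2 in skin migration (-0.29 to 1.17), Il5ra in skin migration (-2.09 to 2.3), and, between nonmigrated sites, Siglecf (-1.46 to 1.09), Il5ra (-1.85 to 2.98), Ear2 (-0.14 to 2.9) and Ear6 (-1.9 to 0.74). Without both replicates 3 Il5ra gave 2.29 in skin migration, and Siglecf 0.52, Il5ra 1.99 and Ear6 -2.29 between sites. With the replicate block Il5ra gave 0.34 and Ear6 -0.51 between sites.

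Same-numbered libraries of compared groups had deviations correlated at -0.25 to 0.189, and no comparison had all 3 pairs over 0.1, so the numbers were not taken as pairs. DESeq2 gave no adjusted p for Ear1 and Ear6 among inflamed samples. Counts of 18 or fewer per library limit Epx, Ear1 and Rnase2a outside joint nonmigrated cells.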
